A study of Homo sapiens with 8 samples.

Results

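The genes described here are the matrix metalloproteinases (MMP), the membrane proteases of the ADAM family, their secreted ADAMTS relatives and the tissue inhibitors of metalloproteinases (TIMP). They were taken as every row of the expression table whose platform annotation held exactly 1 gene symbol made of one of those 4 family names and a number. This gave 62 of 18495 rows, for 59 genes: 24 MMP rows, 15 ADAM rows, 19 ADAMTS rows and 4 TIMP rows. ADAMTS6, ADAMTS13 and MMP16 had 2 rows each. A further 9 rows carried a family symbol beside another gene's symbol and were not used, among them those holding ADAM8, ADAM10 and ADAM17. No row named ADAM10 or ADAM17 alone was analysed here.

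All samples were of one cell line, PNT2, which was derived from normal human prostate epithelium and immortalized. In 4 samples the cells had received small interfering RNA against ESRP1 and ESRP2 (siESRP), the epithelial splicing regulators under study, and in 4 the control RNA against green fluorescent protein (siGFP). Each RNA sample went onto 1 Affymetrix human exon array. The comparison asks which of these genes differ in level when both ESRPs are depleted, and the values, 1 per gene-level row, do not measure splicing.

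Metalloproteinases are zinc-dependent proteases made as inactive precursors, held in check by a prodomain and switched on when it is removed. MMPs cut collagens, laminins and other matrix proteins, ADAMs release the outer parts of membrane proteins such as growth factor precursors, and ADAMTS enzymes act on proteoglycans and procollagens. TIMPs block the active site of MMPs, and TIMP3 also inhibits several ADAM and ADAMTS enzymes. In prostatic epithelium the balance of these proteases and their inhibitors is known for its role in basement membrane turnover.

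Median deposited intensity ran from 233 to 286 per array. The ESRP1 row averaged 582 ± 66.9 in siESRP and 2439 ± 169 in siGFP cells (SD, n = 4 each), a reduction of 76.2% (limma adjusted p = 6.58e-05). The row shared by ESRP2 and NFATC3 was 72.1% lower in siESRP. The 8 measured epithelial markers, with group means between 773 and 6964, summed to 28500 to 29930 per siESRP array and 26060 to 27660 per siGFP array. CDH1, KRT18 and KRT19 were called higher, and the other 5 were not called. Of those, KRT7 (3053 in siESRP, 3700 in siGFP) and EPCAM (3120 in siESRP, 3386 in siGFP) averaged lower in siESRP. CLDN4, ITGB4 and KRT8 averaged higher. The 7 measured fibroblast markers summed to 406 to 483 in siESRP and 494 to 561 in siGFP. COL1A1 was called lower, and DCN averaged 32.7 in siESRP and 35.2 in siGFP. The 7 macrophage and neutrophil markers summed to 1026 to 1370 in siESRP and 967 to 1067 in siGFP. CD68 was called higher (747 in siESRP, 551 in siGFP) and CSF1R lower (80.9 in siESRP, 154 in siGFP), while PTPRC averaged 12.8 in siESRP and 10.7 in siGFP and MPO was below 0 in both groups. The 6 endothelial markers summed to 426.5 to 508.7 in siESRP and 351 to 411 in siGFP. CDH5 was called higher (324 in siESRP, 241 in siGFP) and TEK lower (22.1 in siESRP, 30.2 in siGFP), and PECAM1 averaged 19.2 in siESRP and 15.7 in siGFP. VWF averaged 54.1 in siESRP and 53.5 in siGFP, KDR 32.9 and 32.7, and EMCN 9.20 and 3.28. The epithelial and endothelial sums were higher and the fibroblast sums lower in siESRP without overlap. Most of the endothelial difference lay in CDH5 alone, so that sum does not describe the endothelial markers as a set. The part of these markers in the results was not tested.

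In the cells depleted of ESRP1 and ESRP2, 9 member rows rose and 5 fell at an adjusted p under 0.05, and 48 did not pass. All of these p-values come from limma, fitted on all 18495 rows and adjusted over them by the Benjamini-Hochberg method. Among all rows, 20.2% were called, 10.9% as higher and 9.31% as lower. The members' shares of 22.6% called, 14.5% higher and 8.06% lower lie near those. The closeness depends on the rows read. Rows with a higher group mean of at least 100 and every value above 0 included 25 members. Of these members 12 were called, and of all such rows 28.4%. This filter uses the compared values, and a row can pass it through the siESRP or the siGFP mean alone. MMP14 and TIMP4 did so among the called members, and MMP11, MMP19 and ADAMTS14 among the uncalled ones. No excess is read from these shares. On the values as deposited, 10 of 62 members and 1673 of 18495 rows were called. The median log2 difference over the 62 rows was 0.00, against −0.02 over all rows. The rises were TIMP1, TIMP3, TIMP4, MMP14, MMP25, ADAM12, ADAM15, ADAMTS12 and 1 row of ADAMTS6. The falls were MMP3, ADAMTS2, ADAMTS9, ADAMTS15 and the other row of ADAMTS6.

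Intensities below are quantile normalized. Log2 differences are siESRP minus siGFP on the log2(intensity + 1) scale with values below 0 set to 0, and a fold is given only where both group means are at least 50. In bulk samples, fewer cells expressing a gene and less RNA per cell cannot be told apart. Whether the 4 samples in each group came from separate cultures is not stated in the labels, so each p-value measures only how these samples vary, and that variation could be technical. An intensity is not per length, so levels of different genes are not ranked.

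**Figure D1:**
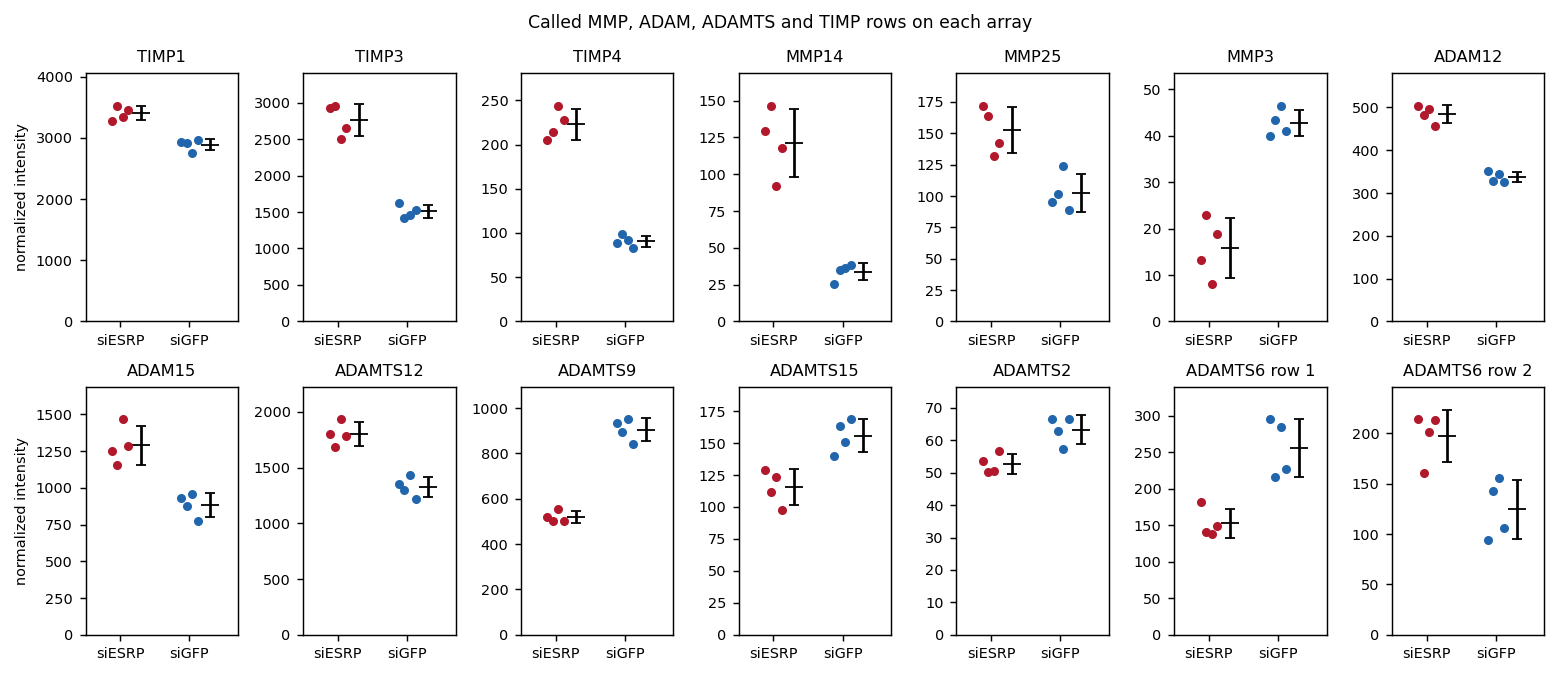
Normalized intensity (y axis, from 0) of the 14 called rows on each array, siESRP left and siGFP right, with 1 point per array and the mean ± SD of 4 arrays beside them. In every panel the siESRP points lie wholly above or wholly below the siGFP points. The rows shown were chosen by their call in the same comparison, which favors such a gap. Among all 62 members the groups did not overlap in 15 rows (24.2%), near the 24.6% of all rows of the table.

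Promoters of the called genes, whether higher or lower, were read to show their upstream sequence. RefSeq promoter windows of the build GRCh38.p14, 250 bases before to 50 after the gene start, matched 32 of the 59 genes and 9 of the 13 called genes. The 4 shown belong to the 3 inhibitors that rose and to MMP14, the member with the largest called log2 difference. Capitals mark, on either strand, the AP-1 letters TGANTCA, the ETS letters AGGAAG, the RUNX letters TGTGGT and the GC box GGGCGG. All 4 are printed 5′ to 3′ along the gene.
TIMP1 promoter, chrX:47582186-47582485, plus strand: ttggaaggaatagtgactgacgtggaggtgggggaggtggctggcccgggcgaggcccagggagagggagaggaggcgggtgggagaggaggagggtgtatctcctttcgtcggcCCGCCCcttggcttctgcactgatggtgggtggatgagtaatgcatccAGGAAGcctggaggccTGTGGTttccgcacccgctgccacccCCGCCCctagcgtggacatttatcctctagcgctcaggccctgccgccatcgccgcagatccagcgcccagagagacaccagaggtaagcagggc
TIMP3 promoter, chr22:32801455-32801754, plus strand: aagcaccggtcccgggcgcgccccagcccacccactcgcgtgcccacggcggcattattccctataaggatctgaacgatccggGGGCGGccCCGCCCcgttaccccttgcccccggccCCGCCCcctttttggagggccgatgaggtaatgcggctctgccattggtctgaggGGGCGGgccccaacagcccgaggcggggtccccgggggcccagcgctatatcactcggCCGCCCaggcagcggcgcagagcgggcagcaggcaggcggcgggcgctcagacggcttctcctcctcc
TIMP4 promoter, chr3:12158863-12159162, minus strand: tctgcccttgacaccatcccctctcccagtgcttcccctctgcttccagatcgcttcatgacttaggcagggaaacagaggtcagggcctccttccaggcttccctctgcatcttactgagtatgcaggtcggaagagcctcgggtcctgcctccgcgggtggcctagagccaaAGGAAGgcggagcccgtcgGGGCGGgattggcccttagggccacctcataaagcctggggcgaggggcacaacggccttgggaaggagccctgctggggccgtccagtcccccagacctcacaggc
MMP14 promoter, chr14:22836335-22836634, plus strand: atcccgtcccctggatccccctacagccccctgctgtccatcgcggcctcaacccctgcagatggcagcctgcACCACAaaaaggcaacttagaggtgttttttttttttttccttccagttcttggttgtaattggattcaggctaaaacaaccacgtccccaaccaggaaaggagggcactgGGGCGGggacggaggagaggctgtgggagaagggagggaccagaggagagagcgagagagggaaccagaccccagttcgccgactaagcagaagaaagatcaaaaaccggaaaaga

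The 4 windows share the GC box, found 5 times in TIMP3, 2 times in TIMP1 and 1 time each in TIMP4 and MMP14. The AP-1 letters are in none of the 4. The GC box was present in 8 of the 9 called genes' windows, in 62.5% of the 32 members' windows and in 44.6% of 27305 RefSeq windows of the same length. The AP-1 letters were in 1 of the 9, ADAMTS12, in 12.5% of the members and in 7.76% of all windows. For the ETS letters the counts were 4 of the 9 and 8 of the 32, with 33.7% of all windows, and for the RUNX letters 2 of the 9 and 4 of the 32, with 13.1%. The called genes' windows include those of ADAMTS2, which fell, and ADAMTS6, whose rows went opposite ways. No excess is read from these counts, and a match is a description of these letters and not a binding site.

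Among the inhibitors, 3 of 4 TIMP genes rose and 0 fell, with a median log2 difference of 0.55. Over all rows, 10.9% were called higher and 9.31% lower. With 4 genes, no excess is read from this count. TIMP4, an inhibitor with a narrow tissue distribution, had intensities of 205, 214, 244 and 228 in siESRP cells, against 88.9, 98.5, 91.7 and 83.0 in siGFP cells. The groups stood far apart, a 2.44-fold rise (log2 difference 1.29 ± 0.08 SE, adjusted p = 0.000127). TIMP3, which binds the extracellular matrix, had intensities of 2920.2, 2958, 2505 and 2652 in siESRP and 1622, 1416, 1465 and 1528 in siGFP. It rose 1.83-fold (log2 difference 0.87 ± 0.07 SE, adjusted p = 0.000446), again without overlap. A further row that holds TIMP3 together with another gene was not used.

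TIMP1, an inhibitor found in many body fluids, changed little in size but with a narrow spread. Its intensities were 3283, 3528, 3336 and 3464 in siESRP cells and 2932, 2916, 2756 and 2958 in siGFP cells. This was a 1.18-fold rise (log2 difference 0.24 ± 0.04 SE, adjusted p = 0.00953), and on the values as deposited the call was lost (adjusted p = 0.180). TIMP2, which takes part in the activation of MMP2 on the cell surface, had 2779.6, 2985, 2939 and 2757 in siESRP, against 2843, 2826, 2564 and 2720.4 in siGFP. Its groups overlapped (log2 difference 0.07, 95% confidence interval −0.05 to 0.19, adjusted p = 0.437).

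Of the 5 rows of transmembrane MMPs, MMP14 rose and 4 rows did not pass, beside 20.2% called among all rows. MMP14 encodes MT1-MMP, a collagenase of the cell surface that also activates MMP2. Its intensities were 129, 147, 91.9 and 118 in siESRP cells and 25.4, 35.2, 36.2 and 38.1 in siGFP cells. The lowest siESRP array was above the highest siGFP array, with means of 121 ± 22.9 in siESRP and 33.8 ± 5.71 in siGFP (SD, n = 4 each; log2 difference 1.81 ± 0.18 SE, adjusted p = 0.000827). The siGFP mean is dim, so no fold is given. MMP15, another membrane enzyme, had means of 132 in siESRP and 124 in siGFP (log2 difference 0.09, adjusted p = 0.289). MMP24 averaged 81.5 in siESRP and 64.1 in siGFP. The MMP16 rows averaged 32.1 and 79.6 in siESRP, against 25.2 and 79.4 in siGFP.

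MMP25, which is tied to the membrane by a lipid anchor and best known from neutrophils, also rose. It had 172, 164, 132 and 142 in siESRP, against 95.6, 102, 124 and 88.8 in siGFP. The gap between the groups was narrow, a 1.49-fold difference (log2 difference 0.57 ± 0.13 SE, adjusted p = 0.0200). The adjusted p was above 0.05 without siESRP replicate 1 (0.0544), siESRP replicate 2 (0.0553), siGFP replicate 1 (0.0551) or siGFP replicate 4 (0.0517). The other lipid-anchored member, MMP17, was near or below 0 in both groups.

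The gelatinases, which cut denatured collagen and basement membrane collagen, did not pass. MMP2 had 515, 539, 469 and 484 in siESRP cells and 351, 466, 414 and 420.2 in siGFP cells. The groups did not overlap, by a small margin, and the log2 difference was 0.29 (95% confidence interval 0.07 to 0.51, adjusted p = 0.0741). Without siGFP replicate 2 its adjusted p was 0.0443, and with array weights it was 0.0467. MMP9 averaged 74.6 ± 16.3 in siESRP and 63.8 ± 2.27 in siGFP (SD, n = 4 each, adjusted p = 0.455), and without siESRP replicate 3, its lowest siESRP array, the adjusted p was 0.0336.

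The stromelysin and collagenase rows had group means of at most 100.1. MMP3, stromelysin 1, was the only MMP row that fell, with 13.2, 22.9, 8.12 and 18.9 in siESRP and 40.0, 43.5, 46.5 and 41.1 in siGFP. Its groups did not overlap, but all 8 values lay under 50 (log2 difference −1.47 ± 0.29 SE, adjusted p = 0.0119). At this dim level the size depends on the pseudocount, and with 16 in place of 1 the log2 difference was −0.91 (adjusted p = 0.00476). MMP10 and MMP11, the other stromelysins, averaged 17.7 and 90.1 in siESRP, against 13.1 and 100.1 in siGFP. The collagenase MMP13 averaged 42.1 in siESRP and 58.9 in siGFP (adjusted p = 0.104). Its adjusted p was 0.0185 without siESRP replicate 1 and 0.0206 with median scaling. MMP1 averaged 53.5 in siESRP and 54.0 in siGFP.

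In RefSeq gene order 9 of the member genes stand side by side on chromosome 11, namely MMP7, MMP20, MMP27, MMP8, MMP10, MMP1, MMP3, MMP12 and MMP13. No group mean of these 9 exceeded 58.9. Only MMP3 of the 9 was called, beside 20.2% of all rows, and log2 differences in the cluster ran from −1.47 to 0.37.

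The remaining MMP rows did not pass. MMP19, a widely expressed secreted enzyme, had 118, 125, 64.4 and 106 in siESRP cells and 66.6, 63.6, 69.4 and 58.5 in siGFP cells. Replicate 3 of siESRP lay inside the siGFP range, and the adjusted p was 0.0762 with all arrays and 0.00223 without it. Leaving out that array also brought MMP24 to an adjusted p of 0.0258. With all 8 arrays, MMP19 passed as deposited (0.0395), with median scaling (0.0301) and without the dimmest rows (0.032). It also passed with trended and robust eBayes (0.0464) and with array weights (0.0140), but not with a pseudocount of 16 or the replicate block. MMP23A averaged 205 ± 71.1 in siESRP and 252 ± 39.2 in siGFP (SD, n = 4 each, adjusted p = 0.380). MMP23A has the near-identical copy MMP23B, so its value is uncertain. MMP21 was below 0 on all 8 arrays.

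**Figure D2:**
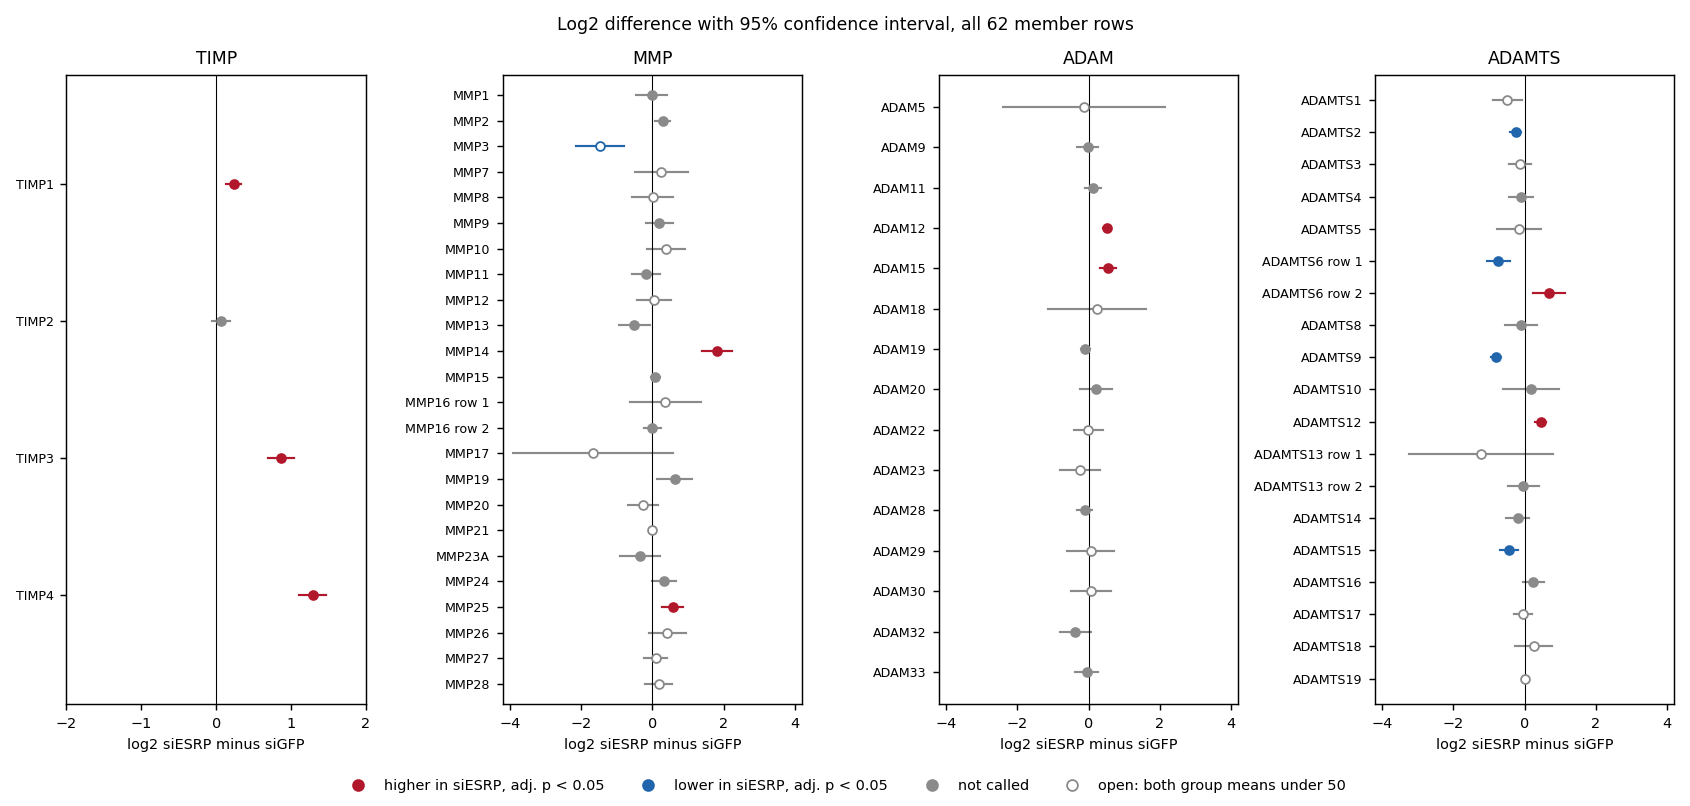
Log2 difference of siESRP minus siGFP (x axis) with its 95% confidence interval for each of the 62 rows, in panels by family. Red rows were called higher, blue rows lower, grey rows were not called, and open points have both group means under 50. MMP14 lies farthest to the right at 1.81, all 4 TIMP rows lie to the right of 0 with 3 of them called, and the points at 0 with almost no interval, ADAMTS19 and MMP21, were below 0 in intensity on all 8 arrays and carry no information.

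Among the 15 ADAM rows, 2 rose and 13 did not pass, beside 10.9% called higher and 9.31% lower over all rows. Both rises were catalytic members. ADAM12, a protease with a long membrane-bound and a short secreted form, had 504, 482, 495 and 457 in siESRP cells, against 352, 328, 344 and 327 in siGFP cells. It rose 1.43-fold with groups well apart (log2 difference 0.52 ± 0.05 SE, adjusted p = 0.000628). ADAM15, whose disintegrin domain binds integrins, had 1252, 1154, 1469.5 and 1285 in siESRP and 928, 879, 956 and 772 in siGFP. It rose 1.46-fold without overlap (log2 difference 0.54 ± 0.10 SE, adjusted p = 0.00839), and on the values as deposited the adjusted p was 0.0996.

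The other ADAM rows with a group mean of at least 300, ADAM9 and ADAM19, did not pass. ADAM9, a sheddase of many epithelia, had 1765, 1544, 1762 and 1792 in siESRP and 2145, 1463, 1837 and 1590.2 in siGFP. The siGFP values enclosed all siESRP values (log2 difference −0.02, 95% confidence interval −0.32 to 0.27, adjusted p = 0.940). ADAM19, linked to neuregulin shedding, had 1695, 1688, 1759 and 1695 in siESRP and 1812, 1895, 1926 and 1646 in siGFP. These overlapped too (log2 difference −0.09, 95% confidence interval −0.22 to 0.05, adjusted p = 0.347).

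The 7 ADAM rows without a working protease site, or of a pseudogene, had group means from 2.16 to 59.4. Called were 0 of the 7, beside 20.2% of all rows. These 7 rows are ADAM5, ADAM11, ADAM18, ADAM22, ADAM23, ADAM29 and ADAM32. ADAM32 averaged 45.8 in siESRP and 59.4 in siGFP (adjusted p = 0.225). Its adjusted p was 0.0175 on the values as deposited and 0.00156 with median scaling. The remaining catalytic members ADAM20, ADAM28, ADAM30 and ADAM33 had means from 33.6 to 79.3.

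Of 19 ADAMTS rows, 2 rose and 4 fell, and 13 did not pass, beside 10.9% called higher and 9.31% lower over all rows. The 6 genes known as proteoglycanases, ADAMTS1, ADAMTS4, ADAMTS5, ADAMTS8, ADAMTS9 and ADAMTS15, all had negative log2 differences, from −0.80 to −0.10, and 2 of them passed. Of all 18495 rows, 9807 had a negative difference. The signs of ADAMTS4 (95% confidence interval −0.44 to 0.24), ADAMTS5 (−0.79 to 0.46) and ADAMTS8 (−0.55 to 0.34) are not settled. ADAMTS9, which cuts versican and aggrecan, had 522, 503, 557 and 502 in siESRP cells, against 935, 894, 952 and 841 in siGFP cells. It fell 1.74-fold (log2 difference −0.80 ± 0.06 SE, adjusted p = 0.000266), and its groups lay far apart.

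ADAMTS15, another aggrecanase, had 129, 112, 124 and 97.4 in siESRP and 139.9, 164, 151 and 169 in siGFP. It fell 1.35-fold (log2 difference −0.43 ± 0.10 SE, adjusted p = 0.0266). The adjusted p was above 0.05 without siESRP replicate 2 (0.0674), siGFP replicate 2 (0.0682), siGFP replicate 3 (0.0568) or siGFP replicate 4 (0.0705), and it was 0.0672 on the values as deposited and 0.0540 with median scaling. ADAMTS8, its neighbour on chromosome 11, averaged 235 ± 45.9 in siESRP and 252 ± 55.0 in siGFP (SD, n = 4 each, adjusted p = 0.771). ADAMTS4 averaged 124 in siESRP and 131 in siGFP, and the neighbouring genes ADAMTS1 and ADAMTS5 were dim, with no mean above 27.7.

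ADAMTS2, which removes the N-propeptide of procollagens, had 53.8, 50.1, 50.5 and 56.6 in siESRP and 66.6, 62.8, 57.2 and 66.6 in siGFP. The lowest siGFP array lay just above the highest siESRP array (log2 difference −0.26 ± 0.07 SE, adjusted p = 0.0355). The call was lost without siESRP replicate 1 (0.0738), 2 (0.0872) or 3 (0.0724), or without siGFP replicate 1 (0.0854), 2 (0.0753) or 4 (0.0899). It was also lost as deposited (log2 difference −0.42, adjusted p = 0.237), with median scaling (−0.44, 0.168) and with trended and robust eBayes (0.195). The other procollagen N-propeptidases ADAMTS3 and ADAMTS14 averaged 19.1 and 94.8 in siESRP, against 20.9 and 109 in siGFP.

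ADAMTS12, which cuts cartilage oligomeric matrix protein, rose 1.36-fold. Its intensities were 1803, 1682, 1936 and 1786 in siESRP cells and 1349, 1302, 1431 and 1215 in siGFP cells. The groups did not overlap (log2 difference 0.44 ± 0.07 SE, adjusted p = 0.00443), and as deposited the adjusted p was 0.140. ADAMTS10, ADAMTS16, ADAMTS17 and ADAMTS18 did not pass. ADAMTS13, the protease of von Willebrand factor, had 1 row below 0 on 6 arrays and 1 row with means of 110.2 in siESRP and 112 in siGFP. ADAMTS19 was below 0 on all 8 arrays.

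ADAMTS6, whose relatives act on fibrillin microfibrils, had 2 rows that went opposite ways. Row 1 had 182, 141, 138 and 149 in siESRP cells and 296, 216, 285 and 226 in siGFP cells, 1.67-fold lower (log2 difference −0.74 ± 0.14 SE, adjusted p = 0.0102). Row 2 had 214, 160.3, 201 and 214 in siESRP cells and 94.0, 143, 156 and 105.5 in siGFP cells, 1.60-fold higher (log2 difference 0.68 ± 0.19 SE, adjusted p = 0.0413). Both rows kept their groups apart, in opposite directions.

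The row 2 call is the less certain of the pair. Its adjusted p was above 0.05 without siESRP replicate 1 (0.104), 3 (0.0790) or 4 (0.101), without siGFP replicate 1 (0.0814), 2 (0.0522) or 4 (0.102), and as deposited (0.0716). Which part of ADAMTS6 each row covers is not given in the sources used here, so the gene as a whole has no single direction in these data.

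**Figure D3:**
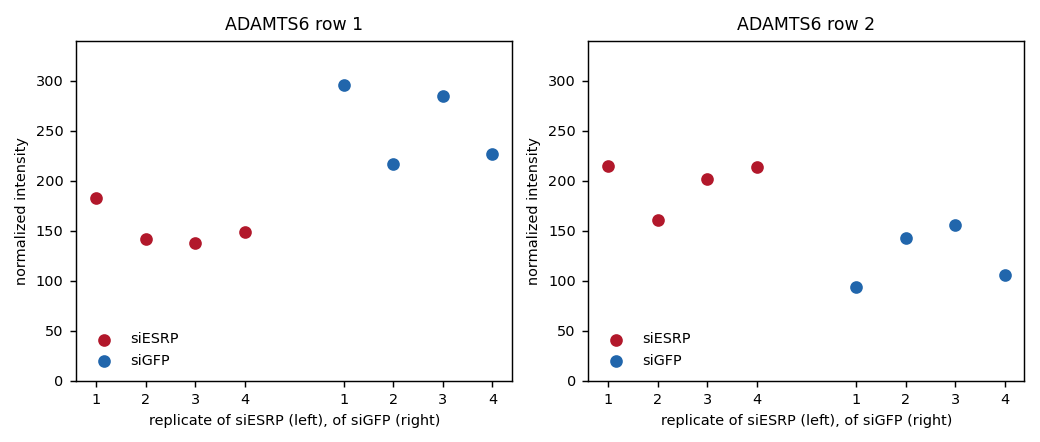
Normalized intensity (y axis, from 0) of ADAMTS6 row 1 (left panel) and row 2 (right panel), with 1 point per array, siESRP replicates left and siGFP replicates right in each panel. The siESRP points lie below the siGFP points for row 1 and above them for row 2.

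Genes that regulate or work with these enzymes were read from the same fit. Of 97 such genes measured, 30 rose and 10 fell, a called share of 41.2%. The share was 20.2% of all rows. Among rows with a higher group mean of at least 100 and every value above 0 it was 28.4%. Most of the 97 genes were read from such rows, and each from its brightest row. The lists were also chosen with earlier results of these data known, so no excess is read from these shares. RECK, a membrane-anchored inhibitor of MMP14, MMP2 and MMP9, had 212, 231.5, 195 and 183 in siESRP cells and 87.0, 98.5, 107 and 99.9 in siGFP cells, 2.08-fold higher without overlap (adjusted p = 0.000544). LRP1, the endocytic receptor that clears metalloproteinases and TIMP complexes, averaged 207 ± 24.7 in siESRP and 114 ± 4.71 in siGFP, 1.80-fold higher (SD, n = 4 each, adjusted p = 0.00110). Of the 12 genes in this list of inhibitors, clearance and activators, 2 rose and 2 fell. The falls were SERPINE2, a serine protease inhibitor, 1.81-fold (adjusted p = 0.000656), and PCSK6, a proprotein convertase, 1.52-fold (adjusted p = 0.00105). FURIN (log2 difference 0.17) and BSG (0.02), an inducer of MMPs, did not pass.

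The partners of ADAM10 and ADAM17 were higher or did not pass: 5 of 9 rose and 0 fell. Over all rows, 10.9% were called higher and 9.31% lower. RHBDF2, which encodes iRhom2, needed for the transport and activity of ADAM17, had 288, 339.5, 342 and 303 in siESRP cells, against 152, 151, 140.2 and 149 in siGFP cells. It rose 2.14-fold with groups far apart (adjusted p = 0.000168), and its paralogue RHBDF1 rose 1.51-fold (adjusted p = 0.00984). The tetraspanins that escort ADAM10, TSPAN5, TSPAN15 and TSPAN14, rose 1.60-fold, 1.40-fold and 1.37-fold, with adjusted p of 0.00142, 0.00896 and 0.0301. TSPAN17 and TSPAN33 did not pass.

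Among 30 measured membrane proteins reported to be shed by ADAM10 or ADAM17, 14 rose and 1 fell. The shares over all rows were 10.9% higher and 9.31% lower. MICB, a stress ligand of natural killer cells, averaged 1688 ± 133 in siESRP and 769 ± 107 in siGFP (SD, n = 4 each, adjusted p = 0.000666). LRP8 rose 2.03-fold, the proteoglycan SDC1 1.92-fold and NOTCH3 1.73-fold. The one that fell was CDH2, 2.06-fold. Shed protein was not measured.

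Other metzincins, the wider family of zinc proteases, and ADAMTS-like proteins had 3 rises and 0 falls among 14. Among all rows 10.9% were called higher and 9.31% lower. The median log2 difference of these 14 genes was −0.20, and no excess is read from the count. BMP1, which removes the C-propeptide of procollagens, had 812, 727.5, 727 and 839 in siESRP and 407, 308, 406 and 331.5 in siGFP, 2.15-fold higher (adjusted p = 0.000871). THSD4 and ADAMTSL4, ADAMTS-like proteins of microfibrils that have no protease domain, rose 2.00-fold and 1.65-fold (adjusted p = 0.000476 and 0.00385). Of 14 ADAMTS substrates and cofactors, FBN1 and LTBP1 rose 1.51-fold and 1.45-fold, and THBS1 and COL1A1 fell 1.69-fold and 1.38-fold. VCAN and ACAN, the proteoglycans cut by ADAMTS9, averaged 36.8 and 70.1 in siESRP, against 33.8 and 60.6 in siGFP, and did not pass.

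Transcription factors known from MMP promoters went both ways, with 4 rises and 5 falls among 18. The shares over all rows were 10.9% higher and 9.31% lower. FOS rose 1.67-fold, ELK3 1.59-fold, ETV1 1.52-fold and ATF3 1.42-fold. ETS1 fell 1.35-fold, ETS2 1.28-fold, RUNX2 1.21-fold and RUNX1 1.17-fold. BATF3 was also called lower, but every siESRP value was below 0 and set to 0, and its siGFP mean was 13.6. At that level its values cannot be told from background. JUN, JUNB, JUND and FOSL1 did not pass.

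**Figure D4:**
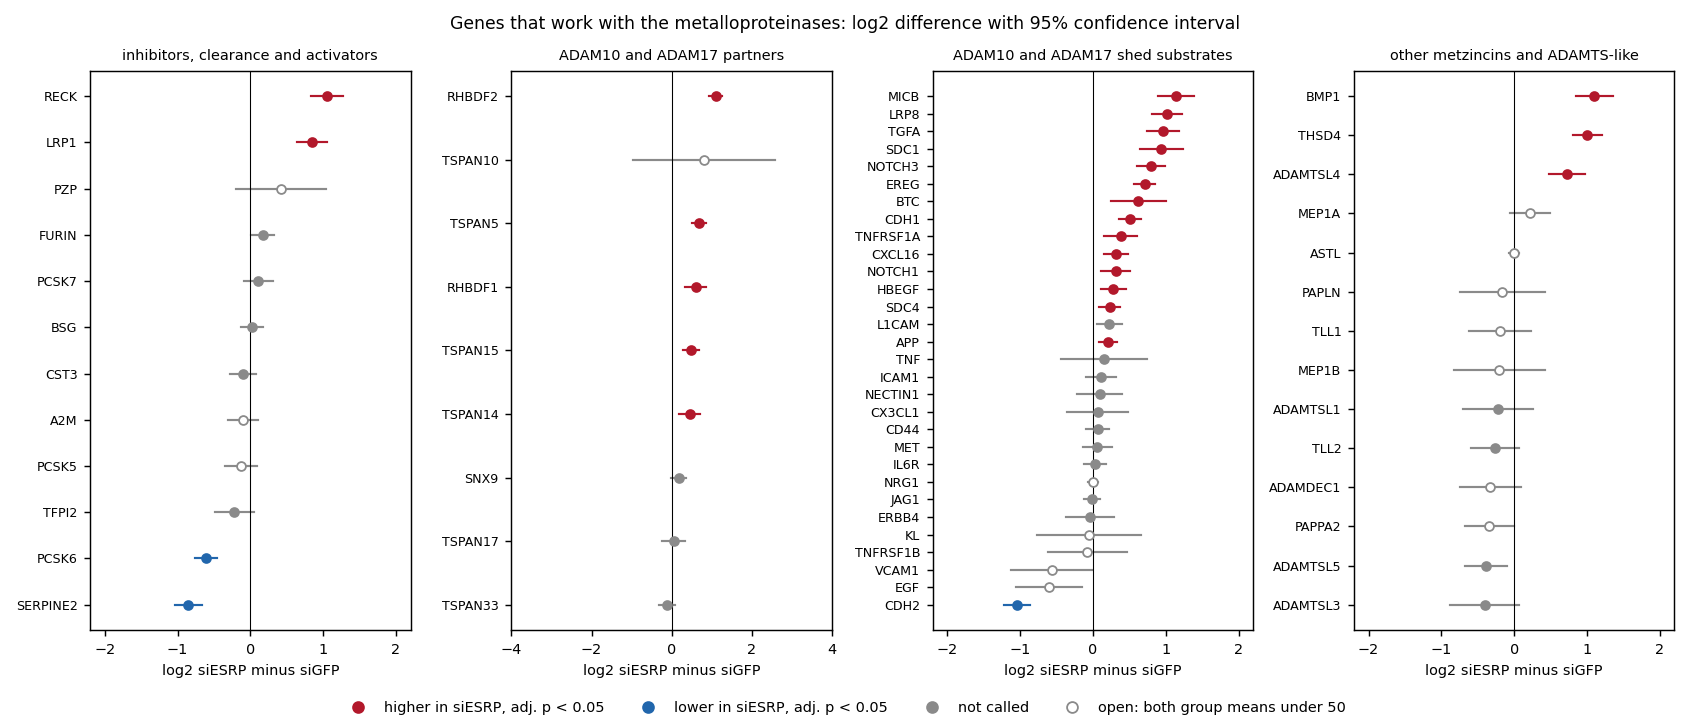
Log2 difference of siESRP minus siGFP (x axis) with its 95% confidence interval for 4 lists of genes that work with the metalloproteinases, colored and opened as in the plot of all members. RECK and LRP1 lie farthest to the right among the inhibitors, clearance and activators, 5 of 9 partners of ADAM10 and ADAM17 are called higher, and genes at 0 with almost no interval, such as NRG1 and ASTL, had intensities below 0.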

How the data were processed

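The authors deposited 1 table of linear intensity values, whole numbers, with 18495 gene-level rows and 8 arrays. Per the labels' protocols, total RNA was depleted of ribosomal RNA and hybridized to Affymetrix human exon arrays. The sources used here do not give the background correction, the probe summary or the scaling. Between 2.70% and 4.02% of values per array lie below 0.

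Quantile normalization was applied to the linear intensities, negative values were replaced by 0, and a pseudocount of 1 was added before log2. Groups were compared two-sided with limma 3.58.1 under R 4.3.3 (lmFit and eBayes, no covariate), with adjustment over all rows at 0.05. The steps were tested on simulated data. Precision is limited by there being 4 arrays per group, and values near 0 cannot be told from background.

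Gene names came from the platform annotation and were updated through Entrez IDs with RefSeq of GRCh38.p14. Of the rows, 14577 had 1 symbol. For companion and marker genes with more than 1 row, the brightest row was used. Promoter letters came from RefSeq (GRCh38.p14).

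All 8 values are printed for each called member, each TIMP and each other member with a group mean of at least 300. MMP19, RECK, RHBDF2 and BMP1 were added after their values were seen. The members and lists were chosen with earlier results of these data known. The replicate number was not used as a block, because no label says that it marks a shared culture or day. Replicates with the same number did not deviate together (correlations −0.18 to 0.05). Alternatives were the deposited scale, scaling to the median, a pseudocount of 16, removal of the dimmest 25% of rows, trended and robust eBayes, array weights, a replicate block, adjusted p under 0.01, at least 1.5-fold, and leaving out each array.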

Additional observations from a re-analysis of the deposited data

Results flagged for a closer look

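The 18 member rows that were called, were a TIMP or had a group mean of at least 300 were searched. MMP19, RECK, RHBDF2 and BMP1, whose values are also printed, were not. The search looked, within each group of 4 arrays, for 1 array standing apart from the other 3. The gap was divided by the range of the group and set against Dixon's 95% critical value. This marked 2 of 36 groups, and chance gives about 1 in 20, or 1.8. ADAM9 in siESRP had a ratio of 0.878, with replicate 2 low at 1544 and the others between 1762 and 1792. ADAM19 in siESRP had a ratio of 0.905, with replicate 3 high at 1759 and the others between 1688 and 1695. Neither gene was called.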

How the results depend on the processing

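Of the 14 called member rows, none turned direction under any of the 17 alternatives. MMP14, TIMP3, TIMP4 and ADAMTS9 kept their call in every alternative. Leaving out single arrays gave 10 to 15 called members in place of 14. The count was 9 with the replicate block, 8 at an adjusted p under 0.01 and 7 with at least 1.5-fold. The replicate block ended the calls of TIMP1 (adjusted p = 0.0521), MMP3 (0.0510), MMP25 (0.0871), ADAMTS15 (0.123) and ADAMTS6 row 2 (0.128). The labels do not say that the number pairs the samples. Among all rows 3729 were called, and 2719 to 3793 with 1 array left out. That count was 1673 as deposited, 2292 with the replicate block, 1808 at an adjusted p under 0.01 and 1309 with at least 1.5-fold. With median scaling the whole table split into 1538 higher and 1519 lower, against 2007 and 1722. Of the companion genes 40 were called, 31 to 34 with 1 array left out, 26 as deposited and 24 with at least 1.5-fold. The log2 difference of ADAM9, which was not called, ran from −0.11 to 0.08. Of the 48 uncalled members, 6 passed in at least 1 alternative (MMP2, MMP9, MMP13, MMP19, MMP24 and ADAM32). The stricter thresholds lower the count by definition. The cause of the other changes was not tested, and leaving out an array changes both the number of arrays and which ones remain.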

Other observations

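The measured ligands of the epidermal growth factor family on the list of shed proteins were TGFA, EREG, BTC, HBEGF, EGF and NRG1. Of these 4 rose, beside 10.9% called higher among all rows. The list was chosen with earlier results of these data known, so no excess is read from this count. TGFA averaged 2122 ± 121 in siESRP and 1096 ± 128 in siGFP cells, 1.94-fold higher (SD, n = 4 each, limma adjusted p = 0.000758). EREG, epiregulin, averaged 2826 ± 96.7 in siESRP and 1730.0 ± 121 in siGFP, 1.64-fold higher (adjusted p = 0.000511). BTC and HBEGF rose 1.54-fold and 1.21-fold (adjusted p = 0.0341 and 0.0367). EGF was dim, with both means under 50, and did not pass, and NRG1 was below 0 in both groups.

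The cadherins on that list went opposite ways. CDH1, the epithelial cadherin, averaged 3042 ± 168 in siESRP and 2137 ± 126 in siGFP, 1.42-fold higher (SD, n = 4 each, limma adjusted p = 0.00182). CDH2, the neural cadherin, averaged 631 ± 61.3 in siESRP and 1295 ± 42.4 in siGFP, 2.06-fold lower (adjusted p = 0.000265).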
